A study of Rattus norvegicus with 3 samples.

Results

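The genes described here are 34 carriers that move amino acids, creatine or small peptides across the outer membrane of kidney cells. They were taken from a fixed list of rat symbols, and a non-control probe of the array counted for a carrier when its RefSeq accession belonged to that gene. Of the 34 genes, 33 were matched to a probe (40 probes in all), and 20 of these passed the filter on dim probes and were tested among 14179 genes. Slc7a1 was not matched to a probe, and its RNA was not analysed here.

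RNA came from kidney of male Sprague-Dawley rats, 5 weeks old when the study began, either untreated (control) or given 200 ppm gamma-aminobutyric acid (GABA) in the drinking water (G200). The labels call the tissue a non-tumor region. Each of 3 two-colour Agilent arrays carried control RNA in Cy3 (green) and RNA of 1 G200 sample in Cy5 (red), and positive log2 ratios stand for more RNA in G200. The dyes were exchanged on 0 arrays, and a difference between the dyes cannot be told apart from an effect of GABA.

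The kidney filters free amino acids from the blood and takes nearly all of them back in the proximal tubule. Carriers of the brush border, the apical face of the tubule cell, draw amino acids and small peptides from the filtrate, often with sodium or protons, while carriers of the basolateral face hand them on to the blood or exchange them with it. The remaining carriers, called broadly expressed here, belong to neither face alone, and most of them feed the metabolism of many cell types, while some are best known from other organs. Several light subunits reach the membrane only together with a heavy subunit, Slc3a1 at the apical face and Slc3a2 at the basolateral face.

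The RNA carried the marks of kidney. Of 36 marker genes of the podocyte, the tubule segments and the collecting duct, 35 were matched to a probe and 31 were tested. Marker genes whose probes were not above the filter were Slc5a12, Slc5a1, Pvalb and Slc26a4. All 8 genes of a liver marker list, among them Alb (serum albumin), were also well above background in both colours on all 3 arrays.

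Among the 20 carriers tested, 2 were called higher and 1 lower in G200 at a limma adjusted p under 0.05. Slc15a2, the high-affinity peptide carrier of the brush border, and Slc43a2, a basolateral uniporter for large neutral amino acids, were higher, and Slc38a4, a sodium-coupled neutral amino acid carrier, was lower. Over all 14179 genes, 11.6% were called higher, 25.9% lower and 37.5% in either direction, against 3 of the 20 carriers (15%). The median log2 ratio of the 20 carriers was 0.047 (0.027, -0.029 and 0.045 on replicates 1, 2 and 3), against -0.049 over all genes tested. It was 0.0090 without replicate 1, 0.014 without replicate 3 and 0.084 with no filter on dim probes. These p-values measure the spread between 3 arrays only: the green channels varied about as little as repeated spots, so control was taken as 1 sample and the spread between control animals is left out. The labels number the rats 1 to 3, and how many animals gave the RNA of each control or G200 sample was not determined here. The sign was the same on all 3 arrays for 7 carriers above 0 and 5 below 0, and it was mixed for 8. In whole-tissue RNA, fewer cells of a type and less RNA per cell cannot be told apart.

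The bases before the transcription start are shown for Slc38a4 and Slc15a2, the carriers with the largest called change in each direction under the main processing, and for 3 carriers whose window holds 1 of the letter strings named below. The largest called rise was that of Slc43a2 with no constant added before logs, and of Slc7a13 with median centring (1.23) and without scaling of the dyes (1.58). Without replicate 3, and with the methods' t-test on 3 ratios after adjustment, 0 carriers were called higher. With that t-test on 2 channels after adjustment, the 1 carrier called higher was basolateral. The sequences are RefSeq's, for the assembly GRCr8, and cover 250 bases upstream of the start in the gene's direction. Of the 34 carriers, 32 were in the promoter table. Slc38a4 lies at chr7:130082170-130082419 on the minus strand, Slc15a2 at chr11:77519315-77519564 on the plus strand, Slc3a1 at chr6:15394750-15394999 on the minus strand, Slc6a18 at chr1:31436403-31436652 on the plus strand and Slc7a12 at chr2:88868104-88868353 on the minus strand. Capitals mark a match on either strand to GTTAAT, letters of the sites of HNF1 factors, to CAAAGTCC, a site of HNF4, or to TGATGNAA, the composite site of the stress factor ATF4.
Slc38a4: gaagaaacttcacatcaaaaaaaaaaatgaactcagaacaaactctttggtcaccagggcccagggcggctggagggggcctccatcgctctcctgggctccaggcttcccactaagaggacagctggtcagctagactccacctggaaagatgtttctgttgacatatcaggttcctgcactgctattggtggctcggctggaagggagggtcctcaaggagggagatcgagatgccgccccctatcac
Slc15a2: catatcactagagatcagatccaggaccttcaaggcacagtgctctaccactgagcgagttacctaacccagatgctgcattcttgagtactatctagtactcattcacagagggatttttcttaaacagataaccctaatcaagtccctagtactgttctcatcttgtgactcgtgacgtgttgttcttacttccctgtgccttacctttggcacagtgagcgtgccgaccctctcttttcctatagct
Slc3a1: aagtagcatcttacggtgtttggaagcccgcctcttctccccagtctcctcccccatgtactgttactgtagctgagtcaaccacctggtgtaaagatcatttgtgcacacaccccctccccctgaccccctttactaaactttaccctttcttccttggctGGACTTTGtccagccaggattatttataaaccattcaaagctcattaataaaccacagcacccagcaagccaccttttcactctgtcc
Slc6a18: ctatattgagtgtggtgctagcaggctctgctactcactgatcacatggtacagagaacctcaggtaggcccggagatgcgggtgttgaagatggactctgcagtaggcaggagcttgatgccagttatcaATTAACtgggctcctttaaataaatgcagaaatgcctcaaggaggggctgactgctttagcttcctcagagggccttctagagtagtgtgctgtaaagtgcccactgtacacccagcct
Slc7a12: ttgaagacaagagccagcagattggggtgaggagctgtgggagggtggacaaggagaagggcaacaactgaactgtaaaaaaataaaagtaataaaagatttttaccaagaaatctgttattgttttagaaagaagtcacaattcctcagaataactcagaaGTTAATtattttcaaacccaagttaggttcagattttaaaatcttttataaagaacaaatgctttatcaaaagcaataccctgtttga

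In all, 8 letter strings were searched, and the 3 that are marked and the 3 matched promoters shown were picked after the matches had been seen. GTTAAT was found upstream of 3 of 32 carriers (Slc6a18, Slc6a19 and Slc7a12) and in 6.45% of all 33469 promoters of the same length. CAAAGTCC was found upstream of Slc3a1 and in 1.14% of all promoters, and TGATGNAA upstream of Slc1a4, Slc38a1 and Slc7a1 and in 3.4%. Of the other strings, the longer HNF1 site that contains GTTAAT was found upstream of Slc7a12 (0.323% of all promoters), TGATGCAA, a form of TGATGNAA, upstream of Slc1a4 and Slc38a1 (0.693%), and TGACCTTTG upstream of 0 carriers (0.376%). CCAAT was found upstream of 8 carriers, Slc38a4 and Slc43a2 among them (34%), and TATAAA upstream of 5 (12.9%). None of the 8 strings occurred in the window of Slc15a2. A match describes letters in the window and says nothing of binding.

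Of the 11 apical carriers, 8 were tested. Their median log2 ratio was 0.15 (0.12, 0.27 and 0.11 on replicates 1, 2 and 3), and 6 of the 8 were above 0 on every array. Over all genes, 26.6% were above 0 on every array. Of the 8, 1 was called higher and 0 lower (of all genes, 11.6% and 25.9%). With each array centred on its median 7 were called higher (35.2%), and without scaling of the dyes 7 (56.5%). Without replicate 3, 0 were called (of all genes, 1.28% higher and 10.1% lower).

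Slc15a2 takes up dipeptides and tripeptides with protons. Its normalized log2 intensity was 7.16, 6.98 and 7.00 in the control channel and 7.45, 7.52 and 7.46 in the G200 channel of replicates 1, 2 and 3. Every G200 value lay above every control value. The log2 ratios were 0.29, 0.54 and 0.47, a mean of 0.43 ± 0.13 (SD, 3 arrays; 95% interval 0.25 to 0.62; 1.35-fold), with a limma adjusted p of 0.00849. The ratio was highest in replicate 2 and lowest in replicate 1. Without replicate 3 the mean was 0.42 and the call was lost (limma adjusted p = 0.0757). The spots were dim, with net intensities of 67, 60 and 57.5 in green, and the constant of 50 added before taking logs draws such ratios toward 0. With no constant the mean was 0.69, and in the log ratio made by the scanner software it was 0.86.

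The cystine and basic amino acid system of the brush border is a heavy subunit, Slc3a1, bound to the light subunit Slc7a9. In the straight tubule Slc3a1 also binds a further light subunit, Slc7a13. The log2 ratios of Slc3a1 were 0.23, 0.57 and 0.11, a mean of 0.30 ± 0.24 (SD, 3 arrays) with a 95% interval of 0.059 to 0.55 and a limma adjusted p of 0.0576. Those of Slc7a13 were 0.029, 0.68 and 0.28, a mean of 0.33 ± 0.33 with an interval of 0.026 to 0.64 and a limma adjusted p of 0.0834. Both were highest in replicate 2 and above 0 on every array, and neither passed the threshold. Without replicate 1, Slc7a13 was called (0.48, limma adjusted p = 0.0171), and with a variance model robust to outlying genes Slc3a1 was called (limma adjusted p = 0.0494). Slc7a9 had log2 ratios of 0.12, 0.17 and -0.026, a mean of 0.087 ± 0.10. The light and heavy subunits were thus not called together under loess, and their difference was not tested. With median centring Slc3a1, Slc7a13 and Slc7a9 were all called higher (1.19, 1.23 and 0.74), as they were without scaling (1.54, 1.58 and 1.09). Of all genes, 35.2% and 56.5% were called higher under these 2 settings.

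Slc6a18, a glycine carrier of the straight tubule, had log2 ratios of 0.13, 0.37 and 0.11, a mean of 0.20 ± 0.14 (SD, 3 arrays; limma adjusted p = 0.0880). Its second, dimmer probe gave -0.036, 0.15 and 0.23. Replicate 2 was the highest at the first probe and replicate 3 at the second. The creatine carrier Slc6a8 had 0.19, 0.056 and 0.048, a mean of 0.097 ± 0.079. Slc1a1, the glutamate and aspartate carrier of the brush border, had 0.025, 0.033 and 0.20, a mean of 0.087 ± 0.10. These 3 carriers serve unlike substrates, were above 0 on every array at the probe that stood for the gene, and were not called under loess. Slc6a18, Slc6a8 and Slc1a1 were called higher with median centring (0.97, 0.82 and 0.64) and without scaling (1.32, 1.17 and 0.99). The proline carrier Slc6a20 was the apical member below 0 on every array, with -0.067, -0.041 and -0.11, a mean of -0.071 ± 0.033 and a 95% interval of -0.23 to 0.084. Its spots were near background (net green intensities of 31, 38 and 28.5).

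**Figure D1:**
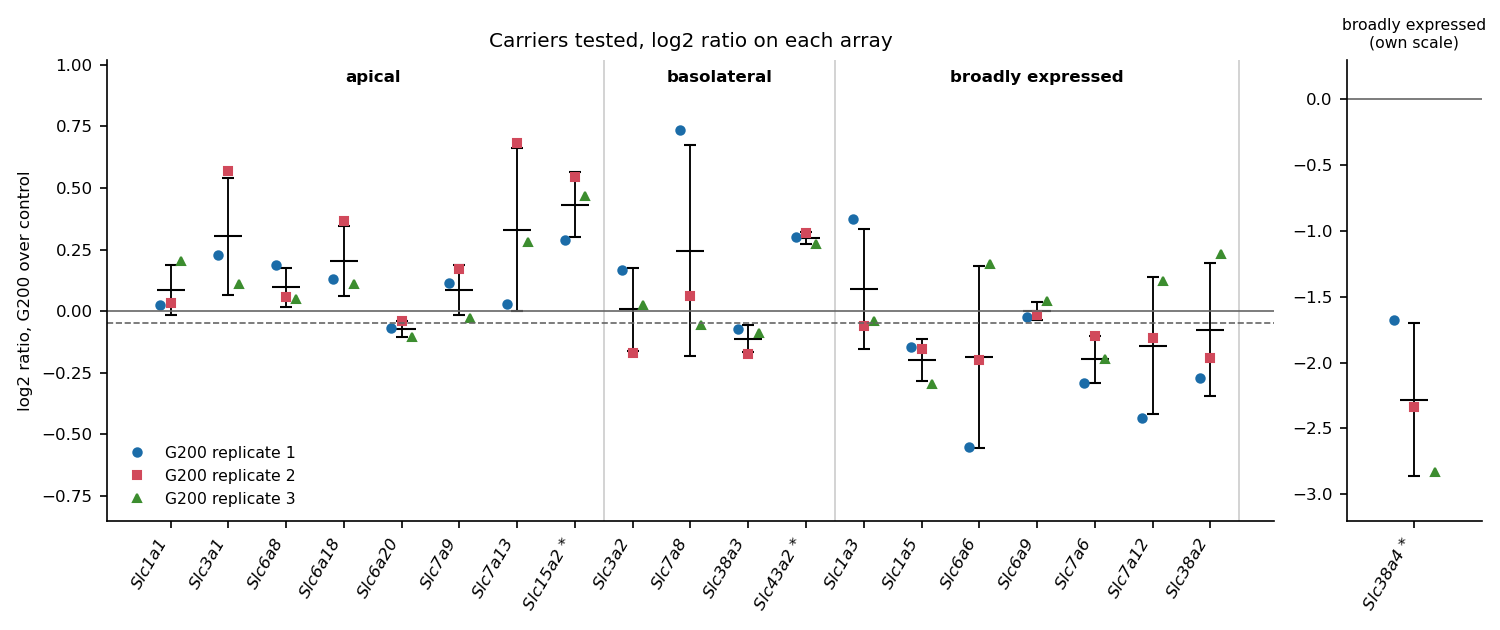
Log2 ratio of G200 over control (vertical axis) for the 20 carriers tested, grouped as apical, basolateral and broadly expressed; symbols are the 3 G200 replicates, bars the mean and SD over 3 arrays, the dashed line the median of all genes tested (-0.049), and an asterisk a limma adjusted p under 0.05. Slc38a4 has a panel with its own scale, where all 3 values lie between -2.83 and -1.68; the other 19 means lie between -0.20 and 0.43.

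Of the 6 basolateral carriers, 4 were tested, with a median log2 ratio of 0.13 (0.23, -0.054 and -0.016 on replicates 1, 2 and 3). The median was -0.035 without replicate 1, 0.19 without replicate 2 and 0.037 with the probes of a gene averaged. Slc43a2 was the called member. Its normalized log2 intensity was 6.39, 6.37 and 6.39 in the control channel and 6.69, 6.69 and 6.66 in the G200 channel, and its log2 ratios were 0.30, 0.32 and 0.27. The 3 arrays lay close together, and the mean was 0.30 ± 0.023 (SD, 3 arrays; limma adjusted p = 0.0152). A second Slc43a2 probe pointed the other way on every array, with -0.21, -0.17 and -0.12. It was well above background on 3 arrays in green and on 1 in red. Averaged over both probes the ratio was 0.065 and was not called (limma adjusted p = 0.433), and without replicate 3 the call of the first probe was lost as well (limma adjusted p = 0.103). Net intensities at the first probe were 29, 31 and 30 in green, and with no constant added before logs its mean was 0.74.

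The basolateral heavy subunit Slc3a2 had log2 ratios of 0.17, -0.17 and 0.025, a mean of 0.0080 ± 0.17 with a 95% interval of -0.20 to 0.21. Its partner Slc7a8, the exchanger that releases neutral amino acids to the blood, had 0.74, 0.061 and -0.057, a mean of 0.25 ± 0.43 with an interval of -0.13 to 0.62. For Slc7a8 the value of replicate 1 stood apart, and without that array the mean was 0.0016. Slc38a3, which takes up glutamine for ammonia production, had -0.071, -0.17 and -0.090, a mean of -0.11 ± 0.054 with an interval of -0.27 to 0.048. It was the basolateral member below 0 on every array, it was not called, and with each array centred on its median in place of loess its mean was 0.080, above 0.

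Of the 17 broadly expressed carriers, 16 were matched to a probe and 8 were tested. Their median log2 ratio was -0.16 (-0.28, -0.13 and 0.0021 on replicates 1, 2 and 3; 0.056 where each array was centred on its median). It was -0.026 without replicate 1 and -0.022 with no filter on dim probes, both above the median of all genes under the same setting (-0.042 and -0.049). Of the 8, 3 were below 0 on every array, and 0 were above 0 on every array. Over all genes tested, 41.7% were below 0 on every array. Apart from Slc38a4 the lowest means were those of Slc1a5, a glutamine and neutral amino acid exchanger, and Slc7a6, which exchanges basic for neutral amino acids. The log2 ratios of Slc1a5 were -0.15, -0.15 and -0.30, a mean of -0.20 ± 0.084 (SD, 3 arrays; 95% interval -0.37 to -0.031; limma adjusted p = 0.0654). Those of Slc7a6 were -0.29, -0.099 and -0.19, a mean of -0.20 ± 0.096 (interval -0.37 to -0.024; limma adjusted p = 0.0731). Neither passed the threshold, and the mean of Slc1a5 turned to 0.050 with median centring.

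In 3 further members of that group the replicates lay on both sides of 0, and each mean turned positive without scaling of the dyes. The taurine carrier Slc6a6 had log2 ratios of -0.55, -0.20 and 0.19, a mean of -0.19 ± 0.37. Slc7a12, a carrier of small neutral amino acids, had -0.43, -0.11 and 0.12, a mean of -0.14 ± 0.28. Slc38a2, the neutral amino acid carrier that cells raise when amino acids run short, had -0.27, -0.19 and 0.23, a mean of -0.076 ± 0.27. In each of them replicate 1 was the lowest and replicate 3 was above 0. The glutamate carrier Slc1a3 had 0.37, -0.061 and -0.038, a mean of 0.091 ± 0.24, with replicate 1 the highest and its green spot well above background on 2 of 3 arrays. Without replicate 1 its mean was -0.049. The glycine carrier Slc6a9 had -0.022, -0.017 and 0.042, a mean of 0.00087 ± 0.036, was well above background in red on 2 of 3 arrays, and was at -0.12 with median centring.

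Slc38a4 had the largest change of the group. Its normalized log2 intensity was 9.20, 9.08 and 8.98 in the control channel and 7.52, 6.75 and 6.15 in the G200 channel of replicates 1, 2 and 3. Control values lay close together, and every G200 value lay below every control value. Net spot intensities, before the dyes were scaled, were 371.5, 375.5 and 342 for Cy3 and 270.5, 53 and 33 for Cy5, so the spot was well above background in both colours on all 3 arrays. The log2 ratios were -1.68, -2.34 and -2.83, a mean of -2.28 ± 0.58 (SD, 3 arrays; 95% interval -2.77 to -1.79; 0.206 of the control level), with a limma adjusted p of 0.00118. Of the 14179 genes tested, 98, counting Slc38a4, had a mean ratio this low or lower. Replicate 3 was the lowest and replicate 1 the highest. The mean was -3.04 with no constant added before logs and -3.25 in the log ratio of the scanner software.

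Though it was placed among the broadly expressed carriers, Slc38a4 is best known from liver, and a list of liver genes is set beside it. The list was picked because earlier results of these data had shown liver genes lower, so the direction of its genes was known beforehand and is no test. All 8 of 8 genes in the liver list were called lower (of all genes, 25.9%), with a median log2 ratio of -3.52 (-1.88, -3.58 and -4.96 on replicates 1, 2 and 3). Summed over the list, normalized intensity was 150849, 178391 and 189728 in the control channel and 41936, 17435 and 6573 in the G200 channel, and the brightest probe of the list was that of Ttr, Alb and Alb in the control channel and of Ttr, Tf and Tf in the G200 channel. Ttr encodes the thyroid hormone carrier transthyretin and Tf the iron carrier transferrin. Log2 ratios were -1.86, -3.80 and -5.49 for Ttr, -2.06, -3.73 and -5.67 for Alb and -2.35, -4.12 and -5.68 for Apoc1, a protein of blood lipoproteins. Fabp1, which binds fatty acids in the cell, had -2.25, -3.85 and -5.31, and Fgb, a chain of fibrinogen, had -1.91, -3.43 and -4.61. Each of the 8 genes was highest in replicate 1 and lowest in replicate 3, as was Slc38a4. Their spread between arrays was wide (SD of 1.81 for Alb), and with the variance model robust to outlying genes 0 of the 8 passed while Slc38a4 did (for Slc38a4, limma adjusted p = 0.00719). Without replicate 2, 7 of the 8 were called. No gene of the list was undetected in either colour, and the part of the liver genes in the result for Slc38a4 was not tested. Slc7a2, a carrier of basic amino acids also found in liver, was not well above background in either colour on any array.

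**Figure D2:**
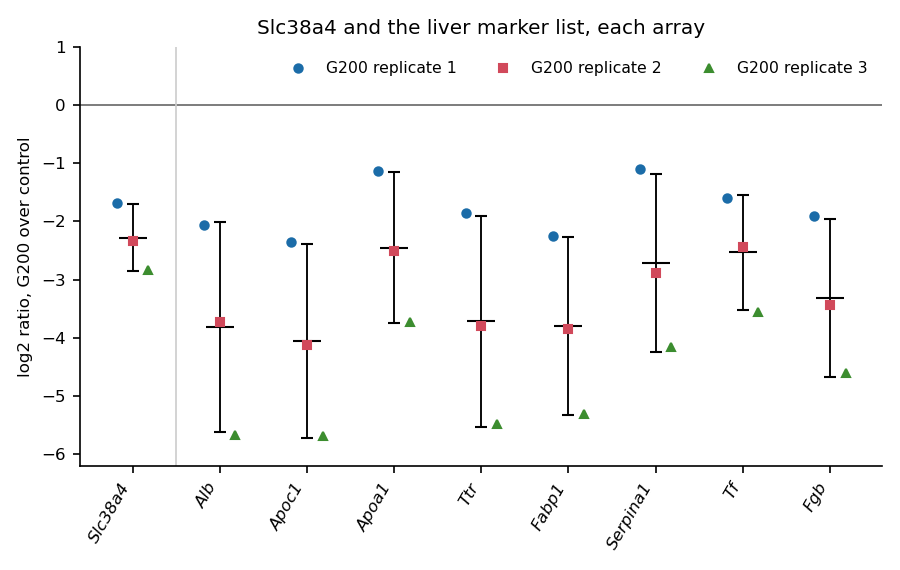
Log2 ratio of G200 over control (vertical axis) for Slc38a4 and the 8 genes of the liver list; symbols are the 3 G200 replicates, and bars the mean and SD over 3 arrays. In all 9 genes replicate 1 is the highest and replicate 3 the lowest, from -1.68 to -2.83 in Slc38a4 and from -2.06 to -5.67 in Alb.

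Set against each other, the apical median exceeded that of the broadly expressed carriers by 0.40, 0.40 and 0.11 on replicates 1, 2 and 3. Against the basolateral carriers the difference was -0.11, 0.32 and 0.13, so that its sign depended on the array. The members overlapped: the lowest apical mean (-0.071, Slc6a20) lay below the highest among the broadly expressed (0.091, Slc1a3). Because members of a class are not replicates and the classes were formed with earlier results known, these differences are given without a test.

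The direction of several uncalled carriers depended on how the dyes were scaled. With each array centred on its median in place of loess, the median over all genes moved from -0.049 to 0.27 and the calls over all genes from 1638 higher and 3678 lower to 4990 higher and 1245 lower. Without any scaling of the dyes the median was 0.62, with 8010 called higher and 304 lower. Carriers with a mean above 0 numbered 12 of 20 under loess, 11 in the ratio of the scanner software, 16 with median centring and 19 without scaling. Called carriers were 10 higher and 1 lower with median centring, and 13 higher and 1 lower without scaling. Slc38a4 was the carrier called lower each time (-1.77 and -1.42). Slc15a2 was called higher each time (0.80 and 1.15), as was Slc43a2 at its first probe (0.37 and 0.73). Slc7a12 and Slc38a2, below 0 in their means under loess, were called higher with median centring (0.58 and 0.54), and Slc6a6 was called higher without scaling (0.71).

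Read against the median of all genes under the same scaling, the apical median lay above it and the broadly expressed one below it, with all 3 arrays and the filter in use. Median centring and no scaling differ by a constant for each array, so that they give the same values here by construction, and 3 scalings are compared. The basolateral median lay above that of all genes by 0.18, 0.33 and 0.13 under loess, in the ratio of the scanner software and with median centring or no scaling, more than the apical median in the second of these. The apical median lay above that of all genes by 0.20 under loess, 0.22 in the ratio of the scanner software and 0.54 with median centring or no scaling. For the broadly expressed carriers the same difference was -0.11, -0.14 and -0.21. Of the 8 apical carriers, 7 lay above the median of all genes in each of these 3, and Slc6a20 was the exception.

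**Figure D3:**
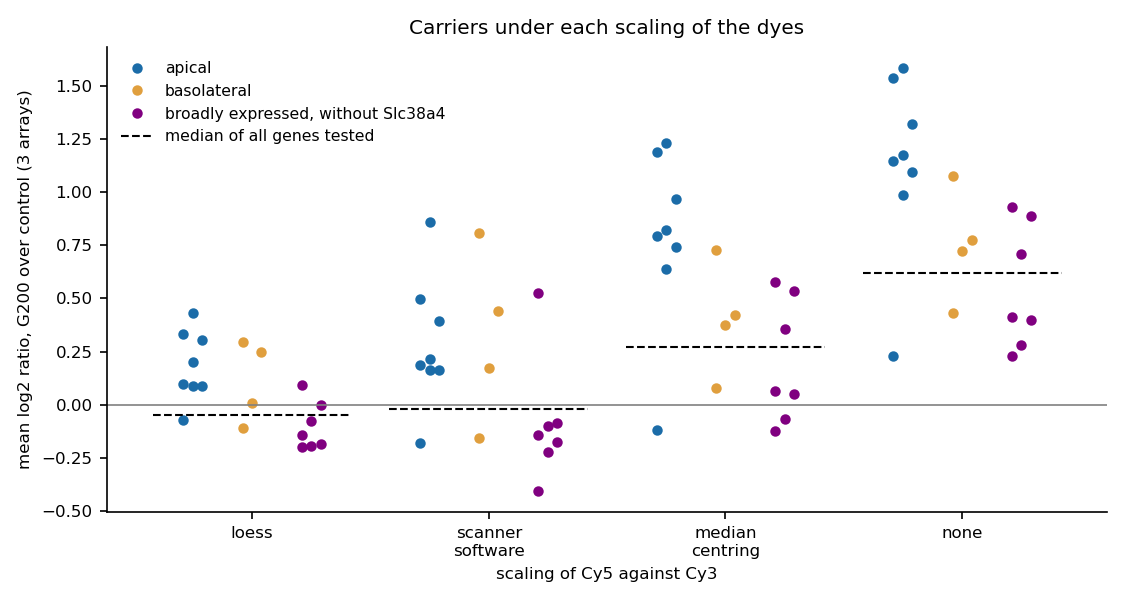
Mean log2 ratio of G200 over control (vertical axis, 3 arrays) for 19 carriers under 4 ways of scaling Cy5 against Cy3 (horizontal axis); each point is 1 gene, and Slc38a4, between -3.25 and -1.42, is left off. The dashed line, the median of all genes tested, moves from -0.049 under loess to 0.62 without scaling, and 7 of 8 apical carriers lie above it in each, where median centring and no scaling give the same distances from the line by construction.

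Detection of the carriers was about that of the array. Of the 40 carrier probes, 21, 22 and 22 were well above background in green on replicates 1, 2 and 3 and 24, 20 and 22 in red, against 51.6%, 54.7% and 54.3% of all probes in green and 53.9%, 47.4% and 52.0% in red. Of the 33 carriers, 18 had a probe well above background in both colours on all arrays, and 13 did not pass the filter. Of these 13, 10 were not well above background in either colour on any array: the peptide carrier Slc15a1 with all 3 of its probes, the glycine and proline carrier Slc36a2, the basolateral light subunit Slc7a7, the alanine and serine carrier Slc1a4, Slc7a2, the large neutral carrier Slc7a5, Slc7a10, which carries glycine and D-serine, both probes of the cystine and glutamate exchanger Slc7a11, the proton-coupled carrier Slc36a1, and Slc43a1. For 3 others, a red spot passed on 1 of 3 arrays: Slc6a19, the main neutral amino acid carrier of the brush border, Slc16a10, which releases aromatic amino acids to the blood, and Slc38a1. Green net intensities of Slc6a19 were 20.5, 19.5 and 19 and red ones 28.5, 17 and 12.5. Both colours were dim for Slc6a19, and no ratio is given for these 13 genes.

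Carriers work beside peptidases, which cut filtered peptides to amino acids at the brush border, and beside partner proteins that bring carriers to the membrane. All 17 genes of this list were tested, and 7 were called higher and 1 lower, against 11.6% and 25.9% of all genes. The median log2 ratio was 0.26 (0.32, 0.26 and 0.26 on replicates 1, 2 and 3). The largest rises were in Enpep, which removes acidic residues from the front of peptides, with 0.84, 0.71 and 0.32 (limma adjusted p = 0.00841), and in Mme, the endopeptidase neprilysin, with 0.67, 0.54 and 0.63 (limma adjusted p = 0.00190). Mep1a, a subunit of the protease meprin, had 0.69, 0.47 and 0.61 (limma adjusted p = 0.00282). Anpep, which removes neutral residues, had a mean of 0.54 ± 0.30 and Dpp4, which releases dipeptides that end in proline, 0.35 ± 0.12. All 5 were above 0 on every array. The scaffold gene Nherf1 fell, with -0.57, -0.37 and -0.28 (limma adjusted p = 0.0114), but its mean was 0.11 with median centring. The partner of Slc6a18 and Slc6a19, Cltrn, had 0.38, 0.35 and 0.046 and was not called. Without replicate 3 the counts were 3 higher and 0 lower (of all genes, 1.28% and 10.1%), and the lost calls were 4 higher ones, those of Anpep and Dpp4 among them, and that of Nherf1 (for Anpep, Dpp4 and Nherf1, limma adjusted p = 0.105, 0.128 and 0.0535). They were, in the log ratio of the scanner software, 4 and 1 (of all genes, 15.1% and 22.4%), with median centring 14 and 0 (of all genes, 35.2% and 8.78%), and without scaling 15 and 0 (of all genes, 56.5% and 2.14%).

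Proximal tubule markers, which share the cell type of the apical carriers, had a median of 0.26 over 9 genes tested of 10 (0.36, 0.097 and 0.22 on replicates 1, 2 and 3). Their summed normalized intensity was 20795, 19947 and 20455 in the control channel and 23559, 22043 and 21120 in the G200 channel, and the brightest probe on each array was that of Slc34a1, a phosphate carrier. Higher were the endocytic receptors Lrp2 (0.26) and Cubn (0.45) and the water channel Aqp1 (0.41), and lower was the transcription factor Hnf4a (-0.32, but 0.15 without scaling). All 4 calls were lost without replicate 3 (limma adjusted p = 0.192, 0.190, 0.0599 and 0.110), that of Lrp2 also without replicate 2 (0.0944) and that of Cubn without replicate 1 (0.0646). Lrp2 had 2 probes, and with the probes of each gene averaged it was at 0.062. Calls of the list were then 2 higher and 1 lower. The median of the list was 0.15 without replicate 1 and 0.062 when all probes of a gene were averaged. With median centring it was 0.83 and without scaling 1.18 (all genes 0.27 and 0.62), and the called counts, 3 higher and 1 lower under loess (of all genes, 11.6% and 25.9%), were 5 and 0 (35.2% and 8.78%) and then 7 and 0 (56.5% and 2.14%). Slc5a12 was the marker of that list whose probes did not pass the filter. The part of this shift in the ratios of the apical carriers and peptidases was not tested.

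**Figure D4:**
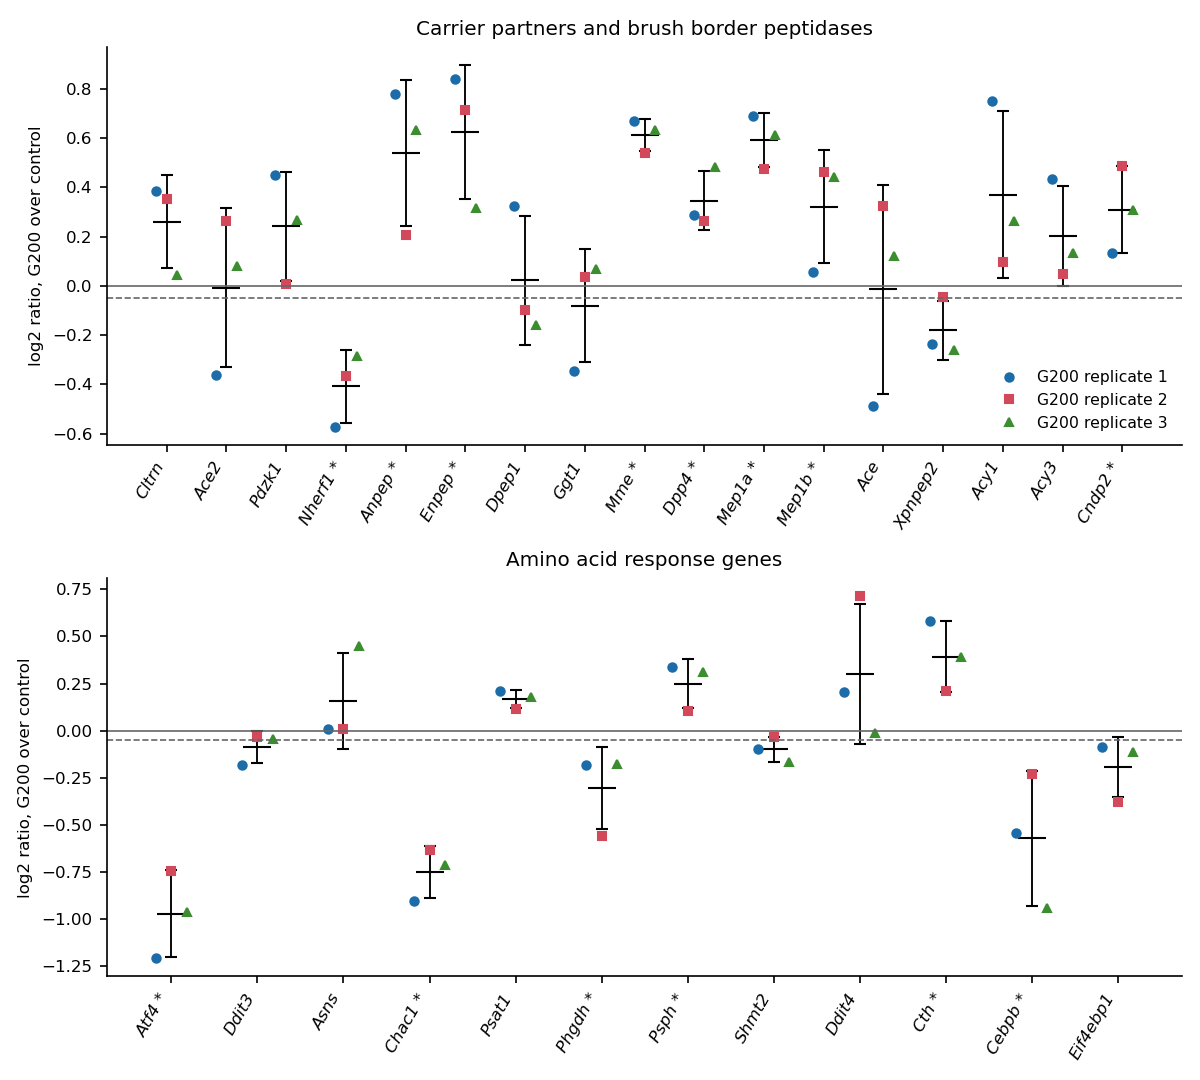
Log2 ratio of G200 over control (vertical axis) for the 17 partner and brush border peptidase genes (upper panel) and for the 12 amino acid response genes tested (lower panel); symbols are the 3 G200 replicates, bars the mean and SD over 3 arrays, the dashed line the median of all genes tested, and an asterisk a limma adjusted p under 0.05. Called genes number 7 above and 1 below 0 in the upper panel, and 2 above and 4 below in the lower, while with median centring the means of Nherf1, Cebpb and Phgdh are above 0, and without scaling that of Atf4 too.

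Cells short of amino acids raise a set of genes through the factor ATF4, among them several carriers. Of 15 such genes, 12 were tested, with a median of -0.092 (0.012 over all 15 with no filter on dim probes), and 2 were called higher and 4 lower (16.7% and 33.3%, against 11.6% and 25.9% of all genes). The sign of the median turned with the scaling: it was 0.46 with median centring and 0.81 without scaling (all genes 0.27 and 0.62). Atf4 itself had log2 ratios of -1.21, -0.75 and -0.96, a mean of -0.97 ± 0.23 (SD, 3 arrays; limma adjusted p = 0.00157), and Chac1, which breaks down glutathione, -0.90, -0.63 and -0.71, a mean of -0.75 ± 0.14 (limma adjusted p = 0.00167). Both were below 0 on every array under loess, but without scaling of the dyes Atf4 was at 0.11 and Chac1 at -0.21, and neither was called (limma adjusted p = 0.646 and 0.356). Cebpb, a partner of ATF4, had -0.57 ± 0.36 and Phgdh, the first enzyme of serine synthesis, -0.31 ± 0.22, and both turned positive with median centring (0.10 and 0.36). Higher were Cth, which makes cysteine, with 0.39 ± 0.19, and Psph, the last enzyme of serine synthesis, with 0.25 ± 0.13. Asns, the asparagine synthetase, had 0.011, 0.0074 and 0.45 and was not called. The members usually raised by ATF4 were tested in part: Slc38a2 had a mean of -0.076 and Slc3a2 of 0.0080, while Slc7a11 and Slc7a5 were not well above background. Called counts became 6 higher and 1 lower with median centring, where Atf4 was at -0.24 (limma adjusted p = 0.129; of all genes, 35.2% and 8.78%), 9 and 0 without scaling (56.5% and 2.14%), 0 and 4 without replicate 1 (6.08% and 18.8%) and 0 and 2 without replicate 3 (1.28% and 10.1%). Cth and Psph lost their calls without replicate 1 or 3, Cebpb without 3, and Phgdh without 2 or 3.

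Other amino acid carriers of the outer membrane, 17 genes found mostly outside the kidney, were largely undetected: 16 were matched to a probe and 5 were tested, with a median of -0.086 (-0.13 to -0.028 without each replicate, and 0.11 where both colours had to pass the filter). The median was -0.35 in the ratio of the scanner software and 0.26 without scaling (all genes -0.021 and 0.62). Of all genes, 11.6% were called higher and 25.9% lower. Under loess Slc7a14 alone of the 5 was called, lower, with -0.48, -0.81 and -0.53 (limma adjusted p = 0.00443). It was well above background in green on 3 arrays and in red on 0, so it was at least 1.41-fold lower in G200. That bound sets its control level against the dimmest signal that still counted as above background in red, and is open to dye bias. A gene that passes the filter through its control spots alone is more likely to be called lower than higher, and where both colours had to pass Slc7a14 was not tested and 0 of 3 genes of the list were called. With no filter it was called (limma adjusted p = 0.00243). Without scaling of the dyes the mean was -0.38 and was not called. Of 18 carriers of mitochondria and lysosomes, 13 were matched and 7 tested, with a median of 0.036 (-0.019 to 0.077 without each replicate). That median was 0.41 with median centring and 0.76 without scaling (all genes 0.27 and 0.62). Under loess 1 was called higher and 2 lower (of all genes, 11.6% and 25.9%). Called counts were 3 and 0 with median centring (35.2% and 8.78%) and 4 and 0 without scaling (56.5% and 2.14%). Slc25a38, the mitochondrial glycine carrier, was higher (0.19, 0.31 and 0.36; limma adjusted p = 0.0227), and Slc25a22, a mitochondrial glutamate carrier, and Slc25a29, a mitochondrial carrier of basic amino acids, were lower (-0.23 ± 0.087 and -0.21 ± 0.074; limma adjusted p = 0.0430 and 0.0494). The means of Slc25a22 and Slc25a29 turned positive without scaling of the dyes (0.24 and 0.19). The calls of Slc25a22 and Slc25a29 were lost whichever replicate was left out (lowest limma adjusted p = 0.0550 and 0.0623), and that of Slc25a38 was lost without replicate 2 (limma adjusted p = 0.0642) or replicate 3 (0.166).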

How the data were processed

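Kidney RNA of 3 G200 samples was measured against control RNA on 3 two-colour arrays of 1 slide, read in 1 scan. The authors deposited Feature Extraction tables (version 11.5.1.1 per the file headers, 9.3.2.1 in the submitters' processing notes) with a median intensity for every spot and the background around it. The deposited tables also give a log10 ratio of Cy5 over Cy3 from the authors' Feature Extraction run, which was used as an alternative.

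The deposited intensities were background-corrected in R 4.3.3 with limma 3.58.1 (normexp with an offset of 50, all 44254 spots in the fit), and loess within arrays, with no weight on control spots, put the dyes on 1 scale. Outlier spots (635, 736 and 945 on replicates 1, 2 and 3) were dropped, and the spots of a probe averaged. A symbol in the RefSeq table of GRCr8 was found for 18355 of 30367 probes (60.4%), by accession, and Slc6a20 was matched through a synonym. A probe was kept when 1 colour was well above background on all 3 arrays (15649 probes), and each of 14179 genes was read from its brightest probe. Array coordinates, of an older build, were not used. Channel values were aligned across arrays by the Aquantile method, which leaves ratios as they are. Median local background was 24 to 25 in green and 49 to 50 in red.

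Mean log2 ratios were tested against 0 by lmFit and eBayes (two-sided), and p-values were adjusted over all genes by Benjamini-Hochberg. For 1109 probes spotted 5 times or more, arrays differed 0.522 to 0.884 times as much as repeated spots in green (squared differences), and for 1084 probes 3.21 to 9.55 times in red, which is why control was taken as 1 sample. Log ratios correlated at 0.778 to 0.904 between arrays, across genes. The members, classes and other lists were chosen with earlier results of these data known. Genes named are all carriers, and from each other list the called genes, at most 5 in each direction by size, with genes that describe detection or partner a carrier. The fit was tested on simulated data: the limit on recovered genes that was written at first was not met, and it was replaced by a lower limit after the outcome had been seen, so that genes with real changes may go uncalled. Alternatives changed the offset, the dye scaling, the filter, the probe rule, the variance model, the test and the replicates used.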

Additional observations from a re-analysis of the deposited data

How the results depend on the processing

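Of the 16 alternatives, 7 changed the ratio of Slc38a4, 7 that of Slc15a2 and 8 that of Slc43a2, and in these Slc38a4 lay between -3.25 and -1.42 on the log2 scale, Slc15a2 between 0.38 and 1.15 and Slc43a2 between 0.065 and 0.81. The others left the ratio as it was. Slc38a4 passed in 14 of the 16, and Slc15a2 and Slc43a2 in 13 each. Called carriers, 2 higher and 1 lower at first, were 10 higher and 1 lower with median centring, 13 and 1 without scaling, 1 and 1 with the mean over probes, and 3 and 1 with the robust variance model. With the methods' t-test on 2 channels they were 2 and 2 before adjustment and 1 and 0 after it, and on 3 ratios 2 and 1 before and 0 and 0 after. Leaving out each replicate gave 0 to 3 higher and 1 lower.

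Over all genes, 4990 were called higher and 1245 lower with median centring, and 8010 and 304 without scaling (8314 in all). With separate channels and no replicate block the counts were 1017 and 3069, and the call of 0 carriers changed. The methods' t-test on 2 channels gave 1071 and 3102 before adjustment and 48 and 278 after it (326 in all), and on 3 ratios 1382 and 3093 before and 0 and 2 after. Without each replicate 1611 to 4965 were called, 182 to 1616 higher and 1429 to 3349 lower.

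Median centring gave medians of 0.48 over all carriers, 0.81 apical, 0.40 basolateral and 0.056 broadly expressed, and no scaling 0.83, 1.16, 0.75 and 0.41. The ratio of the scanner software gave 0.16 over all carriers and 0.31 basolateral. Without each replicate the medians were 0.0090 to 0.070 over all carriers, 0.12 to 0.20 apical, -0.035 to 0.19 basolateral and -0.21 to -0.026 broadly expressed, and with no filter on dim probes 0.084, 0.13, 0.089 and -0.022. Among carriers the sign turned with median centring in Slc38a3 (0.080), Slc1a5 (0.050), Slc6a6 (0.36), Slc6a9 (-0.12), Slc7a12 (0.58) and Slc38a2 (0.54), and without scaling in Slc6a20 (0.23), Slc38a3 (0.43), Slc1a5 (0.40), Slc6a6 (0.71), Slc7a6 (0.28), Slc7a12 (0.93) and Slc38a2 (0.89). Among called genes of the other lists it turned with median centring in Nherf1 (0.11), Phgdh (0.36), Cebpb (0.10) and Pecam1 (0.14), and without scaling in Slc25a22 (0.24), Slc25a29 (0.19), Nherf1 (0.46), Atf4 (0.11), Phgdh (0.71), Cebpb (0.45), Hnf4a (0.15), Slc4a1 (0.34) and Pecam1 (0.49). Leaving the dyes unscaled, or centring each array, keeps by construction any dye difference that varies with intensity. The cause of the other changes was not tested. A slide block could not be fitted, since there was 1 slide. Many carrier spots lay near background, which limits their ratios.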

Other observations

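In the thick ascending limb, 4 genes were tested and 2 called higher under loess (of all genes, 11.6% higher and 25.9% lower). Umod, the urinary protein uromodulin, had log2 ratios of 0.98, 0.81 and 0.82 (limma adjusted p = 0.00101). Cldn16, a tight junction protein, had 0.48, 0.33 and 0.41 (limma adjusted p = 0.00706, and 0.0673 without replicate 3). Slc12a1 of the same list was below 0 on every array (-0.11, -0.13 and -0.31), and Kcnj1 had 0.11, -0.031 and 0.19. Neither was called, and the list median was 0.25. Of 3 intercalated cell genes tested, Slc4a1, the anion exchanger that red cells also carry, was lower (-0.65, -0.51 and -0.89; limma adjusted p = 0.00348; 0.34 without scaling of the dyes). In that list Atp6v1g3 had a mean of 0.31 and Foxi1 of 0.0080, both uncalled, and the median was 0.0080. Of 4 endothelial genes Pecam1, an adhesion protein, was lower (-0.61, -0.52 and -0.56; limma adjusted p = 0.00235), although it was at 0.14 with median centring. Emcn was above 0 on every array (0.26, 0.11 and 0.067), Kdr had a mean of 0.035 and Cdh5 of -0.24. Emcn, Kdr and Cdh5 were not called, and the median of the endothelial list was -0.10. Over these 3 lists 8 higher and 0 lower were called with median centring and 8 higher and 0 lower without scaling (of all genes, 35.2% and 8.78% and then 56.5% and 2.14%). With limma's adjusted p under loess, 0 were called among 5 straight proximal tubule, 1 distal convoluted tubule, 5 principal cell, 4 stromal and 3 leukocyte genes tested (of all genes, 11.6% higher and 25.9% lower). At an unadjusted limma p under 0.05 there were 3 higher and 1 lower, and without adjustment the methods' channel t-test called 1. That count of 0 depended on the scaling of the dyes: over these 5 lists 10 higher and 0 lower were called with median centring (2, 0, 4, 4 and 0 in the order above) and 16 higher and 0 lower without scaling (5, 1, 4, 4 and 2). The distal convoluted tubule gene Slc12a3 had 1.23, -0.0032 and -0.20, with replicate 1 far above the other arrays, as in Slc7a8 (0.74, 0.061 and -0.057).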
